A study of Mus musculus with 12 samples.

Results

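Expression of 34 genes of fatty acid oxidation was compared in mouse liver with and without an injected gene-delivery virus. The genes were taken from a written list that names Ppara, the enzymes of mitochondrial and peroxisomal beta-oxidation, the carnitine shuttle, Cyp4a omega-hydroxylases, acyl-CoA thioesterases and further targets of PPAR alpha. Each name was matched by symbol, and all 34 of the 50600 annotated genes were found once. All 34 were also among the 15219 genes that passed the filter on low counts, so no member dropped out.

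The samples are 12 liver libraries from animals of the Rosa26-LSL-dCas9-p300 strain, about 8 weeks old at injection and killed 2 weeks later. The transgene, in the Rosa26 locus of every group including the PBS controls, encodes Cas9 without cutting activity joined to p300, a histone acetyltransferase, behind a stop cassette (LSL) that Cre opens. Groups of 4 received PBS, AAV.Cbh.gRNA virus with a control, non-targeting guide RNA, or the same virus with a guide RNA against Pdx1, into the tail vein, the viral dose being 1e+12 genomes a mouse. The sources used here do not say how Cre was supplied, which sex the animals were or whether there were batches. The virus, the guide and any opening of the cassette came together, so in a comparison with PBS they cannot be told apart. The labels do not say that libraries of a group came from separate animals, and p-values then measure only the spread between these libraries.

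PPAR alpha is a nuclear receptor that binds fatty acids and, paired with a retinoid X receptor, switches on genes for burning fat. In liver it is most active during fasting, when fatty acids arrive from adipose tissue. Long chains enter mitochondria through the carnitine shuttle and are shortened by beta-oxidation, peroxisomes shorten the longest chains, and the acetyl-CoA formed feeds ketone body synthesis.

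Libraries held 11824767 to 22008046 assigned counts. PBS libraries 2 and 3 had a male pattern, with Xist at 1443, 3.14, 4.41 and 796 CPM (counts per 1e+06 on scaled library sizes) and the Y-linked Ddx3y at 0.18, 97.3, 84.8 and 0.215 CPM in PBS libraries 1 to 4. All 8 virus libraries had the Xist-high pattern, from 584 to 988 CPM. Members whose call after control gRNA or Pdx1 gRNA changed without PBS libraries 2 and 3 are therefore also given without them. Of the 4 PBS libraries, library 1 was the lowest for 17 of the 34 members and library 3 the highest for 19. Pdx1 itself had 0 counts after PBS, at most 0.111 CPM after control gRNA and 1.35, 2.36, 4.08 and 13.00 CPM in the Pdx1 gRNA libraries. Defining hepatocyte markers were abundant in every library, with a summed level of 85738 to 120949 CPM after PBS, 51157 to 74587 CPM after control gRNA and 49177 to 105747 CPM after Pdx1 gRNA. Of these 8 markers, 4 were called lower after control gRNA and 2 after Pdx1 gRNA, beside 15.8% and 10.4% of all genes tested. Without PBS libraries 2 and 3 none was called lower, beside 7.05% and 3.4% of all genes. The part of these markers in the results on the members was not tested. In such bulk samples, fewer cells of a type and less RNA per cell cannot be told apart. Adipocyte markers summed to at most 0.360 CPM and muscle markers to at most 0.540 CPM, and the adipocyte gene Lep had no counts.

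After control gRNA, Ppara fell to 0.154 of its PBS level, 6 enzyme genes around it fell, and 3 members rose. A gene is said to have fallen or risen where the adjusted p of edgeR's quasi-likelihood test, Benjamini-Hochberg over all 15219 genes, was under 0.05. This test with all 12 libraries is meant wherever a gene is said to be called or not called with no other setting named. The members that fell were Ppara, Cpt1a, Acadvl, Decr2, Eci2, Acaa1b and Cyp4a32, which is 7 of 34 or 20.6%, against 15.8% of all genes tested. The members that rose were Cyp4a31, Acot2 and Pdk4, which is 3 of 34 or 8.82%, against 16.3% of all genes. The remaining 24 were not called. The members' median log2 fold change was -0.45 and 29 of the 34 were below 0, while the median of all genes was -0.01. Groups did not overlap, with all 4 virus libraries below all 4 PBS libraries, for 5 members (12.3% of all genes), and lay wholly above them for 3 members (16.5% of all genes).

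After Pdx1 gRNA the picture was narrower in number. Ppara, Decr2, Eci2, Acaa1b and Cyp4a32 fell, 5 of 34 or 14.7%, against 10.4% of all genes, and Cyp4a31 and Acot2 rose, 2 of 34 or 5.88%, against 11.7% of all genes. The median was -0.40, beside -0.06 for all genes, and again 29 of 34 members were below 0. How far the members lay below 0 in both comparisons depended on the scaling, as given below. Groups were fully apart for 4 members on the lower side (8.74% of all genes) and 2 on the higher side (12.7% of all genes). The comparisons with PBS share the same 4 PBS libraries, so their likeness is no independent evidence.

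Between the guides, no member was called, and none of all genes was called (0%) by edgeR's quasi-likelihood test. Pdx1 itself was not called either, with a log2 fold change of 7.42, groups fully apart and an unadjusted p under 0.05. The lack of calls therefore does not show that the guides had the same effect. At an unadjusted p under 0.05 there were 918 genes, none of them a member, and DESeq2 called 14 genes and no member. For 24 of the 34 members the Pdx1 gRNA level was the higher, with a median difference of 0.10 on the log2 scale. Over all genes it was the higher for 7471 of 15219, with a median of -0.01. The members' median was -0.08 without Pdx1 gRNA library 2 and 0.18 without Pdx1 gRNA library 1, so its sign depended on the libraries kept. No member's groups were fully apart (6.65% of all genes). The largest differences were 0.74 ± 0.36 for Cyp4a32, 0.58 ± 0.28 for Ppara and -0.85 ± 0.55 for Pdk4, each with an adjusted p of 0.809 or 0.846 in edgeR's quasi-likelihood test.

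**Figure D1:**
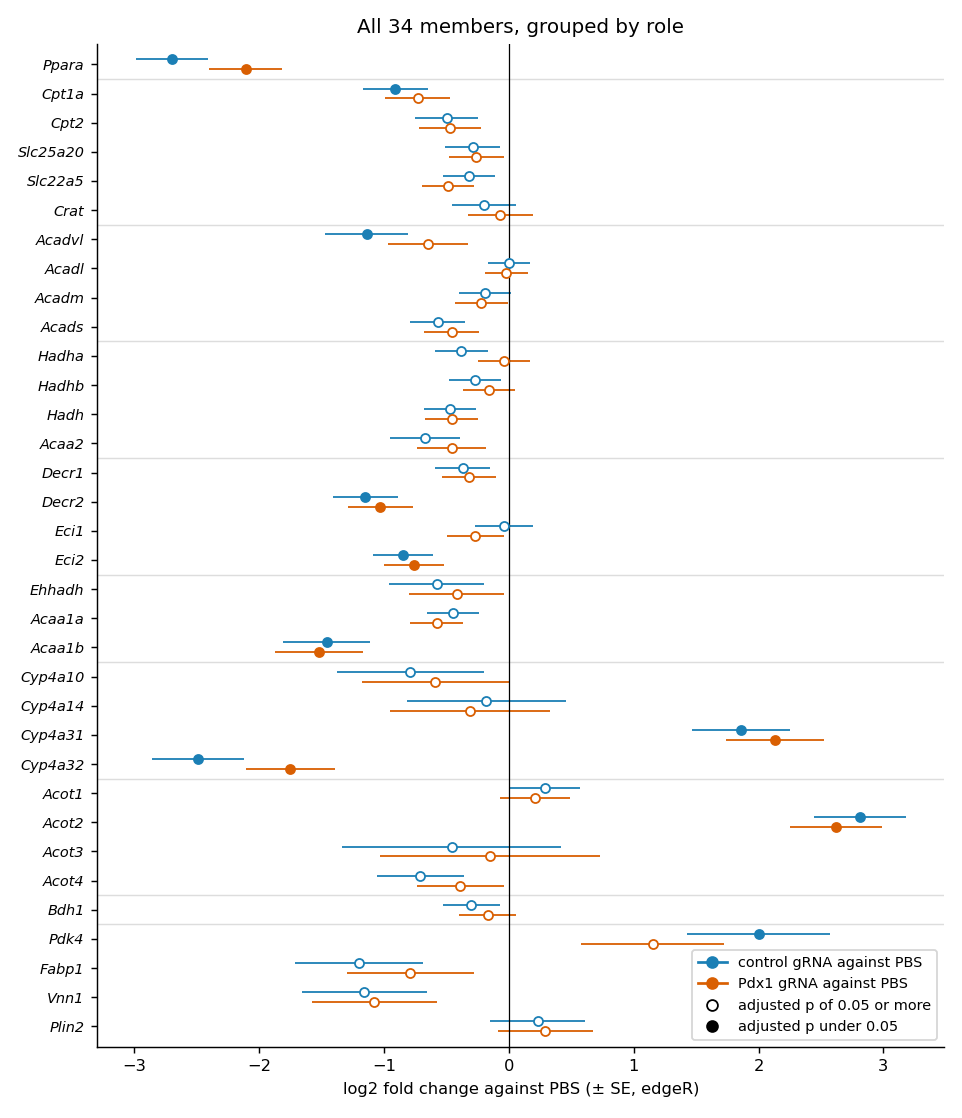
Log2 fold change against PBS (horizontal axis, points with bars of ± 1 SE from edgeR) for each of the 34 members (vertical axis, grouped by role), after control gRNA in blue and Pdx1 gRNA in orange, with filled points for an adjusted p under 0.05. Ppara and Cyp4a32 lie farthest left with either guide, Acot2 lies farthest right with either guide, next to it Pdk4 after control gRNA and Cyp4a31 after Pdx1 gRNA, and most other members lie a little left of 0 with open points.

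Ppara (ENSMUSG00000022383.13, chr15:85734983-85802819, plus strand of GRCm38), the receptor itself, stood at 101, 264, 214 and 146 CPM in PBS libraries 1 to 4. It stood at 23.7, 31.04, 23.00 and 33.9 CPM after control gRNA and at 41.5, 45.5, 52.8 and 27.6 CPM after Pdx1 gRNA. Every virus library was below every PBS library, and the highest PBS values were those of libraries 2 and 3. The log2 fold change was -2.70 ± 0.29 after control gRNA (± SE, edgeR's quasi-likelihood test, adjusted p = 0.000153) and -2.11 ± 0.29 after Pdx1 gRNA (adjusted p = 0.000725), or 6.5-fold and 4.33-fold. When PBS libraries 2 and 3 were left out the values were -2.17 (edgeR's adjusted p = 0.00279) and -1.58 (adjusted p = 0.00828). The call held in all 25 alternative analyses in both comparisons.

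Of the 5 carnitine shuttle genes, 1 fell after control gRNA and none after Pdx1 gRNA. Cpt1a, the rate-limiting acyltransferase of the outer mitochondrial membrane, was at 225, 539, 579 and 454 CPM after PBS, at 253, 225, 216 and 261 CPM after control gRNA and at 196, 323, 299 and 266 CPM after Pdx1 gRNA. PBS library 1 lay among the virus libraries and the other 3 PBS libraries lay above them all. The change was -0.91 ± 0.26 after control gRNA (edgeR, adjusted p = 0.0191) and -0.73 ± 0.26 after Pdx1 gRNA (adjusted p = 0.0621). The call ended without PBS libraries 2 and 3 (-0.53, edgeR's adjusted p = 0.216), and also without PBS library 2 (adjusted p = 0.0541), PBS library 3 (0.0603) or control gRNA library 3 (0.0545) alone. It also ended with scaling by total counts only. Cpt2, the inner-membrane partner, gave -0.50 ± 0.25 and -0.47 ± 0.25 on the log2 scale after the control and Pdx1 guides. Slc25a20, the carrier of acylcarnitines across that membrane, gave -0.29 ± 0.22 and -0.26 ± 0.22. Slc22a5, which takes carnitine into the cell, gave -0.32 ± 0.21 and -0.49 ± 0.21, and Crat, carnitine acetyltransferase, -0.20 ± 0.26 and -0.07 ± 0.26. None of these 4 was called.

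The acyl-CoA dehydrogenases open each round of mitochondrial beta-oxidation, and Acadvl, which takes the longest chains, fell after control gRNA. It was at 90.8, 366, 298 and 292 CPM after PBS, 117, 94.2, 132 and 130.1 CPM after control gRNA and 132, 199.8, 157 and 177 CPM after Pdx1 gRNA. PBS library 1 was below every virus library, whereas the other 3 PBS libraries were above all 8. The change was -1.14 ± 0.33 (edgeR, adjusted p = 0.0184) after control gRNA and -0.65 ± 0.32 (adjusted p = 0.164) after Pdx1 gRNA. Without PBS libraries 2 and 3 the control gRNA value was -0.72 (edgeR's adjusted p = 0.192), without PBS library 2 alone the adjusted p was 0.0579, and without control gRNA library 2 it was 0.0532. The call on Acadvl also ended with scaling by total counts only. Acadl, for long chains, lay at 216 to 269.8 CPM after PBS, 195 to 279 CPM with the control guide and 192 to 293 CPM with the Pdx1 guide, a difference of -0.00 ± 0.17 and -0.02 ± 0.17 on the log2 scale. It had the smallest spread of all members. Acadm, for medium chains, gave -0.19 ± 0.21 and -0.22 ± 0.21, and Acads, for short chains, -0.57 ± 0.22 and -0.46 ± 0.22 (edgeR's adjusted p = 0.0679 and 0.162).

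The later mitochondrial steps gave 4 uncalled members, all below 0. Hadha and Hadhb, the subunits of the trifunctional protein, gave -0.38 ± 0.21 and -0.27 ± 0.21 after control gRNA and -0.04 ± 0.21 and -0.16 ± 0.21 after Pdx1 gRNA. Hadh, the dehydrogenase for shorter chains, gave -0.47 ± 0.21 and -0.46 ± 0.21, and Acaa2, the mitochondrial thiolase, -0.67 ± 0.28 and -0.46 ± 0.28. These genes again had their lowest PBS value in library 1. Leaving that library out brought Cpt2, Acads, Hadha, Hadhb, Hadh, Acaa2 and Decr1 past the threshold after control gRNA, for 14 members lower in place of 7. After Pdx1 gRNA the count without PBS library 1 was 9 in place of 5. Over all genes the share called lower also rose, to 21.4% after control gRNA and 17.3% after Pdx1 gRNA.

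Enzymes for unsaturated chains gave 2 of 4 members lower with either guide, Decr2 and Eci2. Decr2, the dienoyl-CoA reductase of peroxisomes, was at 204, 256, 334 and 218 CPM after PBS, 82.4, 124, 91.6 and 157 CPM after control gRNA and 105, 156, 150.0 and 84.98 CPM after Pdx1 gRNA. The groups did not overlap. Its log2 fold changes were -1.15 ± 0.26 (edgeR, adjusted p = 0.00576) and -1.03 ± 0.26 (adjusted p = 0.0143). Eci2, an enoyl-CoA isomerase, was at 287, 249.9, 265 and 167 CPM after PBS, 121, 158, 101 and 157 CPM after control gRNA and 119, 191, 161 and 99.2 CPM after Pdx1 gRNA. PBS library 4 was the low PBS value and fell inside the range of the Pdx1 gRNA libraries. Its log2 fold changes were -0.85 ± 0.24 (edgeR, adjusted p = 0.0177) and -0.76 ± 0.24 (adjusted p = 0.0383). Once PBS libraries 2 and 3 were left out, neither gene was called: Decr2 stood at -0.91 and -0.78 (edgeR's adjusted p = 0.0593 and 0.114) and Eci2 at -0.78 and -0.68 (adjusted p = 0.0996 and 0.164). The call on Eci2 also ended without control gRNA library 3 in the control comparison (edgeR's adjusted p = 0.0517), and with scaling by total counts only. In the Pdx1 comparison it ended without PBS library 1, 2 or 3 (adjusted p = 0.0528, 0.0778 and 0.088 in edgeR), without Pdx1 gRNA library 1, 3 or 4 (0.0966, 0.0529 and 0.0942) and with the replicate block (0.0512). That call also ended with scaling by total counts only, with no filter on low counts and with only the 8 libraries compared. The mitochondrial counterparts were not called: Decr1 gave -0.37 ± 0.22 and -0.32 ± 0.22, and Eci1 gave -0.04 ± 0.23 and -0.27 ± 0.23.

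**Figure D2:**
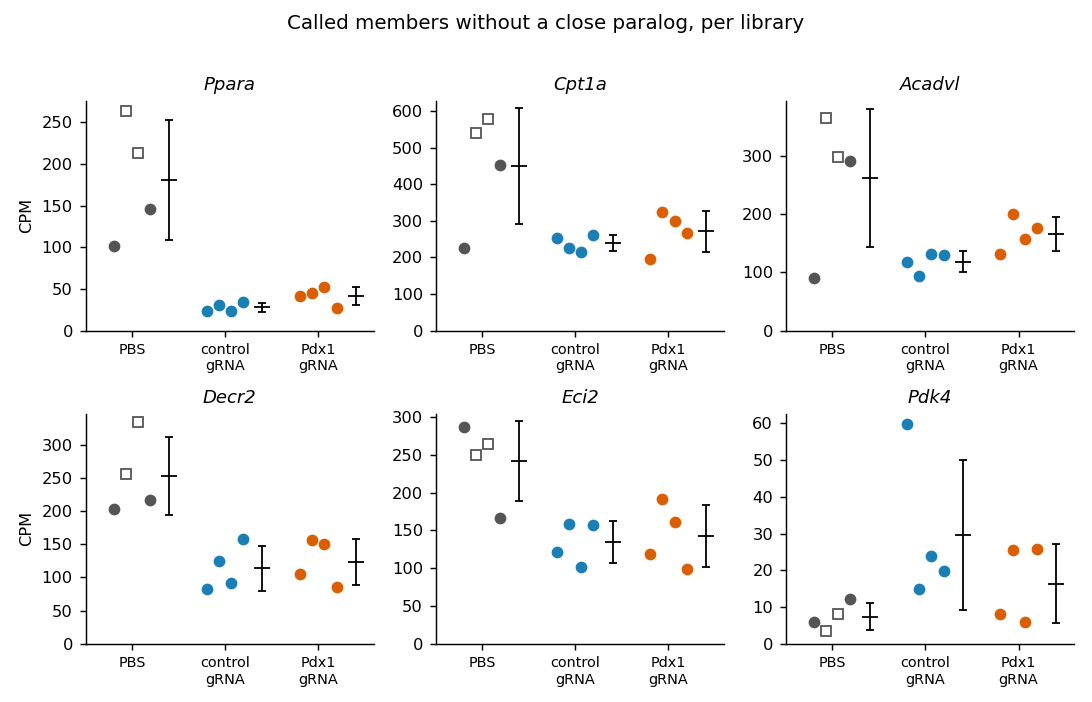
CPM per library (vertical axes, linear from 0) for the 6 called members without a close paralog among the members, by group, with the mean and SD of 4 libraries in black and PBS libraries 2 and 3 as open squares. Ppara and Decr2 are apart between PBS and both virus groups, PBS library 1 is low for Cpt1a and Acadvl, and control gRNA library 1 is high for Pdk4 at 59.7 CPM.

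Of the 3 peroxisomal members, Acaa1b fell and Ehhadh and Acaa1a were not called. Acaa1b, a peroxisomal thiolase at 1664 ± 812 TPM after PBS (a level per transcript length), was at 1133, 1685, 2719 and 914 CPM after PBS, 492, 559, 540.0 and 754 CPM after control gRNA and 481, 787, 640.4 and 346 CPM after Pdx1 gRNA. All virus libraries were below all PBS libraries, and PBS libraries 2 and 3 were the highest. The log2 fold changes were -1.46 ± 0.35 (edgeR, adjusted p = 0.00774) and -1.52 ± 0.35 (adjusted p = 0.0095), and without those libraries -0.82 and -0.88, no longer called (adjusted p = 0.0921 and 0.0974 in edgeR). Its neighbour Acaa1a has 96.5% of its coding bases in common with it. Acaa1a lay at 194 to 354 CPM after PBS, 189.8 to 262 CPM after control gRNA and 166 to 229 CPM after Pdx1 gRNA, with log2 fold changes of -0.45 ± 0.21 and -0.58 ± 0.21 (edgeR's adjusted p = 0.111 and 0.059). Ehhadh, the bifunctional enzyme of the peroxisome, gave -0.58 ± 0.38 and -0.42 ± 0.38.

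The Cyp4a enzymes hydroxylate fatty acids at the chain end, and 2 of the 4 members moved in opposite directions. They lie side by side on chromosome 4, Cyp4a10 at chr4:115518264-115533649, Cyp4a31 at chr4:115563649-115579015 and Cyp4a32 at chr4:115600969-115621602, all on the plus strand. Coding sequences of the 3 differ at 77 of 1527 aligned positions. The stretch shown was picked as the 60-base window where they differ most, so it is not typical of the whole. It is coding bases 202 to 261 of the GENCODE M21 transcripts (GRCm38), with the 9 positions that differ among them in capitals.
Cyp4a10: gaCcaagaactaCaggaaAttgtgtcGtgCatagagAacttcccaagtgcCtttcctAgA
Cyp4a31: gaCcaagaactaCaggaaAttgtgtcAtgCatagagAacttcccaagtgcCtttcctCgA
Cyp4a32: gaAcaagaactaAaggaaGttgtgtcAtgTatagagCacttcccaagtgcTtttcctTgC
Cyp4a31 and Cyp4a32 are 96.0% identical over the coding sequence, Cyp4a10 and Cyp4a32 97.2%, and Cyp4a10 and Cyp4a31 96.6%. Of the 50-base stretches of the Cyp4a32 transcripts, 43.8% also occur in another gene, and for Cyp4a31 and Cyp4a10 the shares are 20.6% and 29.8%.

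Cyp4a32 was at 25.5, 30.7, 27.2 and 20.03 CPM after PBS, 3.28, 7.25, 2.73 and 5.21 CPM after control gRNA and 7.15, 9.58, 10.95 and 3.20 CPM after Pdx1 gRNA. Cyp4a31 was at 9.59, 4.75, 4.51 and 12.2 CPM after PBS, 25.9, 39.5, 22.8 and 25.9 CPM after control gRNA and 23.6, 60.4, 33.5 and 20.3 CPM after Pdx1 gRNA. The virus groups did not overlap PBS for either gene, Cyp4a32 being below and Cyp4a31 above. Cyp4a32 fell, with log2 fold changes of -2.49 ± 0.37 (edgeR, adjusted p = 0.000732) and -1.75 ± 0.36 (adjusted p = 0.00605). Cyp4a31 rose, by 1.86 ± 0.39 (edgeR, adjusted p = 0.00404) and 2.13 ± 0.39 (adjusted p = 0.00312). Without PBS libraries 2 and 3 the values of Cyp4a32 were -2.33 and -1.59 (edgeR's adjusted p = 0.0115 and 0.0511) and those of Cyp4a31 1.36 and 1.64 (adjusted p = 0.0519 and 0.0406). Summed over the pair, levels were 35.1, 35.4, 31.7 and 32.3 CPM after PBS, 29.2, 46.7, 25.6 and 31.1 CPM after control gRNA and 30.8, 70.02, 44.5 and 23.5 CPM after Pdx1 gRNA. The groups of the sum overlap. With Cyp4a10, the closest copy of Cyp4a32, added, the sum was 191 to 632 CPM after PBS. It was 112 to 442 CPM after control gRNA and 132 to 470 CPM after Pdx1 gRNA, also with overlap. The counting command has no option to count a read that maps to several places. Each gene's count then rests on reads placed at a single site, so the levels of such near copies are uncertain. The part of read placement in the opposite changes was not tested.

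Cyp4a10 and Cyp4a14, the more abundant members of the family, were not called and varied widely. Cyp4a10 was at 303, 155, 525 and 599.8 CPM after PBS and spanned 82.9 to 411 and 108 to 400.4 CPM after the control and Pdx1 guides, with log2 fold changes of -0.79 ± 0.59 and -0.59 ± 0.59. Cyp4a14 was at 516, 63.2, 743 and 624 CPM after PBS, PBS library 2 standing 11.8 times below the highest. Its log2 fold changes were -0.18 ± 0.64 and -0.31 ± 0.64.

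Acyl-CoA thioesterases release free fatty acids from their CoA esters, and Acot2, the mitochondrial form, had the largest rise of all members. The 4 members form a cluster on chromosome 12, in the order Acot2 (chr12:83987861-83993873), Acot1, Acot4 and Acot3 (chr12:84052144-84059565). Acot2 was at 9.95, 7.03, 13.5 and 14.2 CPM after PBS, 116, 56.7, 63.6 and 78.1 CPM after control gRNA and 34.7, 74.8, 51.3 and 113 CPM after Pdx1 gRNA. The lowest virus library was above the highest PBS library. It rose by 2.81 ± 0.37 on the log2 scale (edgeR, adjusted p = 0.000398) and 2.62 ± 0.37 (adjusted p = 0.000826), or 7.03-fold and 6.13-fold. With PBS libraries 2 and 3 left out, the rises were 2.68 and 2.50 (edgeR's adjusted p = 0.0108 and 0.0172), and the call held in all 25 alternatives.

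Acot1, the cytosolic form, shares 95.6% of its aligned coding bases with Acot2. It was at 40.05, 33.5, 48.4 and 58.5 CPM after PBS, 70.03, 47.9, 32.8 and 70.1 CPM after control gRNA and 30.8, 54.3, 65.7 and 58.4 CPM after Pdx1 gRNA, with log2 fold changes of 0.29 ± 0.28 and 0.21 ± 0.28. In contrast to the Cyp4a pair, Acot1 and Acot2 summed also lay higher after control gRNA, at 96.4 to 186 CPM against 40.5 to 72.7 CPM after PBS, while the 65.5 to 172 CPM after Pdx1 gRNA overlapped PBS. Acot4 and Acot3, peroxisomal forms, were not called. Acot4 gave -0.71 ± 0.35 and -0.39 ± 0.35, and was called lower after control gRNA without PBS libraries 2 and 3 (-1.15, edgeR's adjusted p = 0.0406), with a covariate for the male pattern, or without PBS library 2 alone (-0.95, adjusted p = 0.0416). Acot3 was at 43.6, 2.85, 14.04 and 104 CPM after PBS, a 36.4-fold span within that group, and its log2 fold changes were -0.46 ± 0.88 and -0.15 ± 0.88 (-1.32 and -1.01 without PBS libraries 2 and 3).

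**Figure D3:**
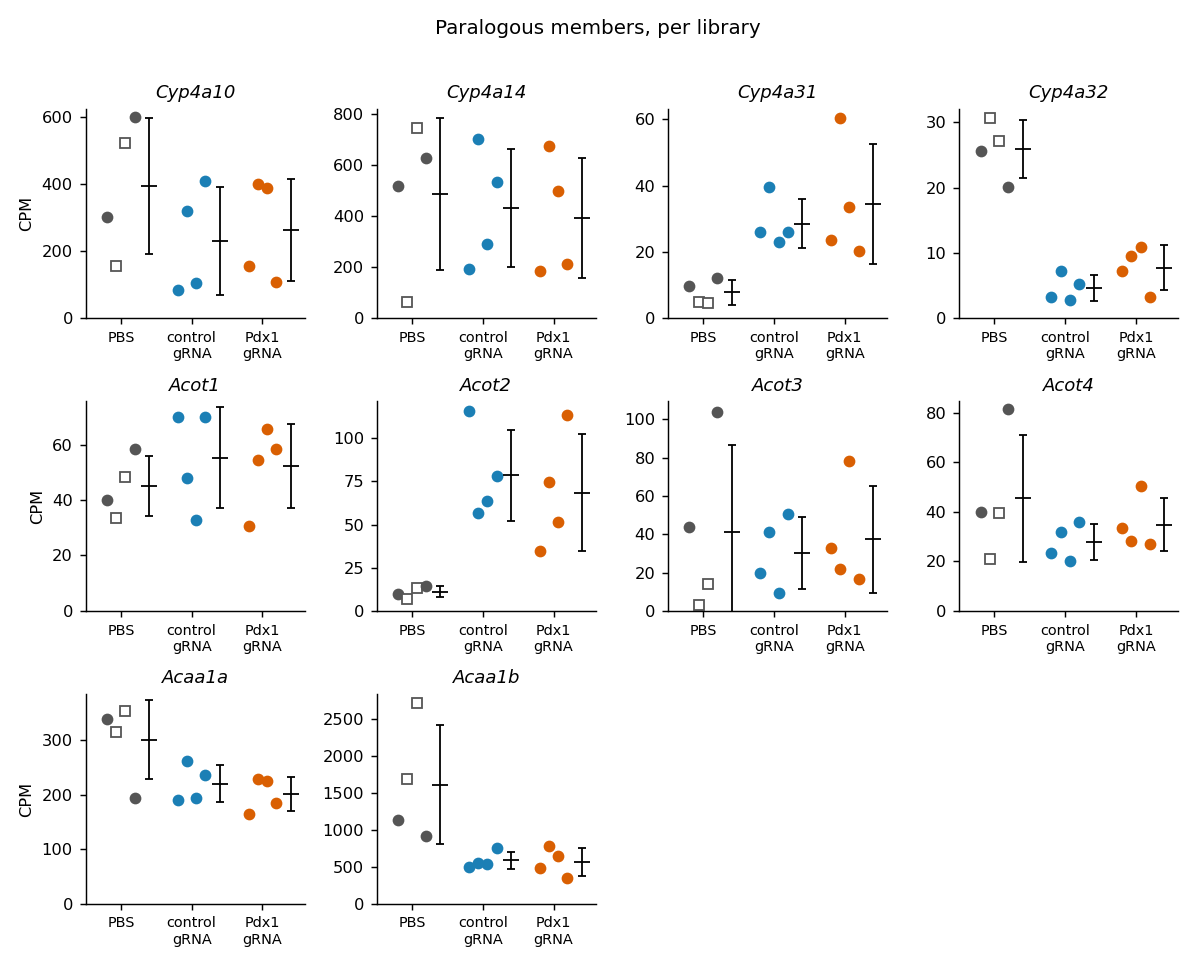
CPM per library (vertical axes, linear from 0) for the 10 members with a paralog among the members, by group, with the mean and SD of 4 libraries in black (the bar of Acot3 after PBS is cut at 0) and PBS libraries 2 and 3 as open squares. Cyp4a31 and Acot2 lie higher in both virus groups and Cyp4a32 and Acaa1b lower, while Cyp4a14 and Acot3 scatter over most of their range within PBS.

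Among the remaining members, Pdk4, which brakes pyruvate dehydrogenase and so spares glucose, was at 5.88, 3.42, 7.99 and 12.1 CPM after PBS, 59.7, 14.9, 23.7 and 19.7 CPM after control gRNA and 8.18, 25.6, 6.04 and 25.8 CPM after Pdx1 gRNA. Control gRNA library 1 was by far the highest, all 4 control gRNA libraries were above PBS, and 2 of the Pdx1 gRNA libraries lay within the PBS range. It rose by 2.00 ± 0.57 after control gRNA (edgeR, adjusted p = 0.0196), and the change after Pdx1 gRNA was 1.15 ± 0.57 (adjusted p = 0.164). The difference between the guides, -0.85 ± 0.55, did not pass (edgeR's adjusted p = 0.846). The call ended without control gRNA library 1 (1.38, edgeR's adjusted p = 0.0734), without PBS library 2 (0.0539), without PBS libraries 2 and 3 (1.70, adjusted p = 0.145) and with no filter on low counts (adjusted p = 0.0744).

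Fabp1, the fatty acid-binding protein of the liver cytosol, was the most abundant member per length, at 13777 ± 6496 TPM after PBS. It was at 6627, 2918, 3806 and 1938 CPM after PBS, 802, 2479.8, 914 and 2450.0 CPM after control gRNA and 2242, 2916, 2923 and 768 CPM after Pdx1 gRNA. PBS library 1 was the highest of all 12, and the groups overlap. Its log2 fold changes of -1.20 ± 0.51 and -0.79 ± 0.51 were not called (edgeR's adjusted p = 0.0887 and 0.285), while DESeq2 and the fit with length and GC trends removed called it lower after control gRNA. Vnn1, a pantetheinase, gave -1.16 ± 0.50 and -1.08 ± 0.50 (-0.33 and -0.23 without PBS libraries 2 and 3), and was called lower after control gRNA by DESeq2 and without PBS library 4 or Pdx1 gRNA library 2, and after Pdx1 gRNA without Pdx1 gRNA library 2. Bdh1, which interconverts the ketone bodies, gave -0.30 ± 0.23 and -0.17 ± 0.23. Plin2, a coat protein of lipid droplets, gave 0.23 ± 0.38 and 0.29 ± 0.38, with levels of 197 to 648 CPM after PBS, 443 to 583 CPM with the control guide and 304 to 801 CPM with the Pdx1 guide. Its values without PBS libraries 2 and 3 were 0.96 and 1.03, not called.

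Members differed widely in level and in spread. Per length, mean levels after PBS ran from 4.36 ± 2.49 TPM for Pdk4, 6.41 ± 3.46 for Cyp4a31 and 10.5 ± 3.63 for Acot2 to 1361 ± 330.4 for Acaa2, 1664 ± 812 for Acaa1b and the value of Fabp1 above. Acaa2 and Acaa1b do not differ beyond their spread, and neither do Pdk4 and Cyp4a31. The biological coefficient of variation, the spread between libraries of a group beyond counting error, was 0.202 for Acadl and at most 0.287 for the carnitine shuttle, the acyl-CoA dehydrogenases and the later mitochondrial steps, apart from Acadvl (0.33). It was highest for Acot3 (0.822), Cyp4a14 (0.61), Cyp4a10 (0.563), Pdk4 (0.535), Fabp1 (0.491) and Vnn1 (0.48). The median of all tested genes was 0.256, and 22 of the 34 members lay above it. The 34 members took 0.912 to 1.34% of all counts in PBS libraries, 0.733 to 1.05% with the control guide and 0.744 to 1.17% with the Pdx1 guide, and Fabp1 alone took up to 0.619%, in PBS library 1.

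How many members were called depended on which PBS libraries were kept. Without PBS libraries 2 and 3, the members lower after control gRNA were Ppara, Cyp4a32 and Acot4 (3 in place of 7) and Acot2 alone rose (1 in place of 3). After Pdx1 gRNA, Ppara alone fell (1 in place of 5) and Cyp4a31 and Acot2 rose (2, as before). Over all genes, 7.05% were then lower and 6.91% higher after control gRNA, and 3.4% and 4.5% after Pdx1 gRNA. The members' median was then -0.25 beside -0.05 for all genes, and -0.18 beside -0.09. A covariate for the male pattern marks only PBS libraries 2 and 3. The PBS level then rests on the other PBS libraries, so this fit is no independent check. With the covariate, 3 members were lower and 2 higher after control gRNA, and 2 lower and 2 higher after Pdx1 gRNA. Of all genes, 8.69% were then lower and 9.61% higher, and 4.84% and 6.96%. No called member changed its sign in any of the 25 alternatives. Scaled by total counts only, the median of all genes moved from -0.01 to 0.34 in the control gRNA comparison and from -0.06 to 0.22 in the other. The members' own median moved from -0.45 to -0.11 and from -0.40 to -0.15. The members' median minus that of all genes was then -0.45 and -0.37, beside -0.44 and -0.35 with the scaling used here. The split of all called genes was then 4432 higher and 1064 lower in place of 2488 and 2399 after control gRNA, and 3062 and 705 in place of 1787 and 1583 after Pdx1 gRNA. With upper-quartile scaling it was 3001 and 1854 after control gRNA.

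**Figure D4:**
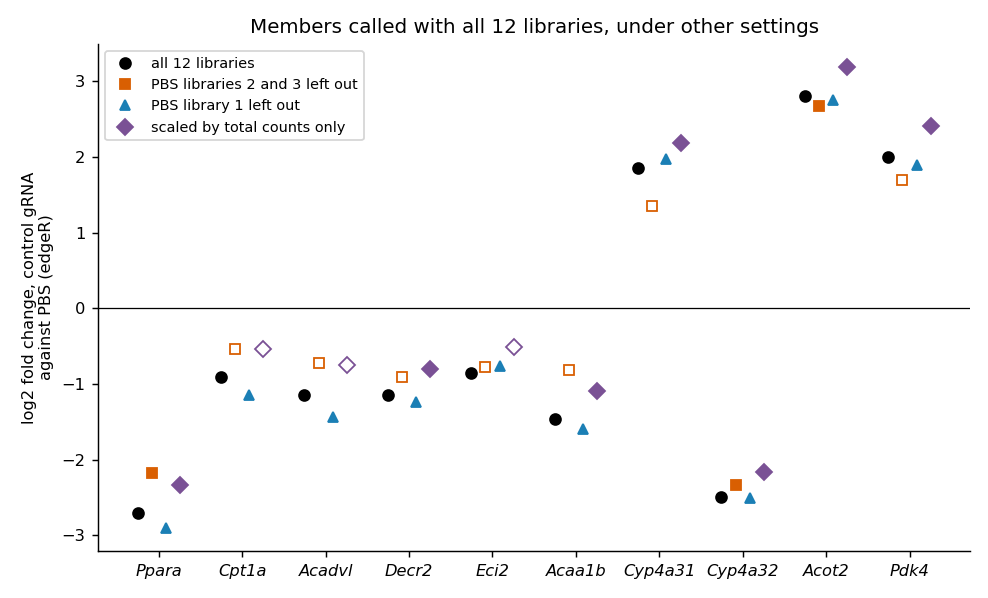
Log2 fold change after control gRNA against PBS (vertical axis, edgeR) of the 10 called members (horizontal axis), with all 12 libraries, without PBS libraries 2 and 3, without PBS library 1 and with scaling by total counts only, filled where the adjusted p is under 0.05. Every symbol of a gene lies on the same side of 0, and Ppara, Cyp4a32 and Acot2 are filled in all 4 settings.

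Other genes of the pathway were followed in 7 lists of 121 genes outside the members. Of the 116 tested, 44 fell after control gRNA (37.9%) and 9 rose (7.76%), and 34 fell (29.3%) and 7 rose (6.03%) after Pdx1 gRNA, with medians of -0.52 and -0.50. Of all genes tested, 15.8% fell and 16.3% rose after control gRNA and 10.4% and 11.7% after Pdx1 gRNA, the shares to set beside each list that follows. Leaving out PBS libraries 2 and 3, 19 fell and 4 rose after control gRNA, beside 7.05% and 6.91% of all genes in that fit. After Pdx1 gRNA 8 then fell and 1 rose, beside 3.4% and 4.5% of all genes. With PBS library 1 left out, the numbers that fell were 61 and 57, beside 21.4% and 17.3% of all genes. Between the guides none was called by edgeR's quasi-likelihood test, 8 having an unadjusted p under 0.05, and DESeq2 called none of them. These lists were drawn up with earlier results of the same data known, and their shares are a description.

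Receptor partners and coregulators gave 8 of 17 genes lower and none higher after control gRNA, and 4 lower after Pdx1 gRNA. Lpin1, which works with PPAR alpha in the nucleus and is also a phosphatidate phosphatase, went from 362 to 472 CPM in PBS libraries to 64.5 to 136 CPM with the control guide and 75.03 to 232 CPM with the Pdx1 guide. Its log2 fold changes of -2.06 ± 0.31 and -1.41 ± 0.30 (edgeR, adjusted p = 0.000736 and 0.00698) held in every alternative. The coactivator Ncoa2 fell after control gRNA (-1.01 ± 0.19, edgeR, adjusted p = 0.00227). It was also called lower after Pdx1 gRNA, a call that ended in 3 of the 25 alternatives. Rxra, the partner of PPAR alpha on DNA, fell after control gRNA (-0.99 ± 0.24, adjusted p = 0.00876), a call that ended without PBS libraries 2 and 3 (-0.55, edgeR's adjusted p = 0.124). Pparg, a related receptor, gave 0.25 ± 0.33 and 0.19 ± 0.33 (0.85 and 0.80 without PBS libraries 2 and 3) and was not called. Ppargc1a, a coactivator of oxidative metabolism, gave -0.80 ± 0.33 after control gRNA and -1.08 ± 0.34 after Pdx1 gRNA (edgeR's adjusted p = 0.0832 and 0.037), and 12 of the 25 alternatives ended the second call. Ep300, the mouse gene of p300, gave -0.46 ± 0.16 (adjusted p = 0.0396) after control gRNA, a call that ended in 15 of the 25 alternatives.

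Fatty acid uptake and activation gave 4 of 13 tested genes lower and 1 higher with either guide. Acsl1, which joins long-chain fatty acids to CoA, fell with both guides (-1.94 ± 0.29 and -1.36 ± 0.28, edgeR, adjusted p = 0.000729 and 0.00641), from 848 to 1586 CPM after PBS to 247 to 426 and 324 to 679. The transporters and acyl-CoA synthetases Slc27a5 and Slc27a2 fell after control gRNA (-2.23 ± 0.40 and -1.42 ± 0.35, edgeR, adjusted p = 0.00198 and 0.00889). Both were also called lower after Pdx1 gRNA. Cd36, a fatty acid receptor at the cell surface, spanned 13.2 to 142 CPM within PBS and was not called (-0.36 ± 0.51 and -1.45 ± 0.52), though after Pdx1 gRNA it was called lower by DESeq2 and without PBS library 1. Without PBS libraries 2 and 3, Acsl1 kept its call after control gRNA (-1.62, edgeR's adjusted p = 0.0122) and lost it after Pdx1 gRNA (-1.03, adjusted p = 0.0677), as did Slc27a5 (0.0241 and 0.0871), and Slc27a2 lost it in both (0.0968 and 0.274).

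Other mitochondrial oxidation genes gave 8 of 17 lower and none higher after control gRNA, and 7 lower after Pdx1 gRNA. Acad10 and Acadsb, further acyl-CoA dehydrogenases, fell after control gRNA (-1.22 ± 0.18 and -1.45 ± 0.24, edgeR, adjusted p = 0.000736 and 0.00117) and after Pdx1 gRNA (-1.0 ± 0.18 and -1.23 ± 0.24, adjusted p = 0.00305 and 0.004), calls that held in every alternative. Pccb, a subunit of propionyl-CoA carboxylase, fell after control gRNA (-1.03 ± 0.21, edgeR, adjusted p = 0.00332). It was also called lower after Pdx1 gRNA, though not without PBS libraries 2 and 3. Peroxisomal genes gave 12 of 27 lower and 1 higher after control gRNA, and 9 lower and 1 higher after Pdx1 gRNA. Acnat1, an acyltransferase of the peroxisome, fell with both guides (-1.75 ± 0.21 and -1.30 ± 0.21, edgeR, adjusted p = 0.000247 and 0.00154), and Scp2, a sterol carrier and thiolase, fell after control gRNA (-2.08 ± 0.42, adjusted p = 0.00336), with -1.08 without PBS libraries 2 and 3. Scp2 was also called lower after Pdx1 gRNA, a call that ended without those libraries.

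Ketogenesis and ketone transport gave 2 of 7 genes lower and 2 higher after control gRNA, and 1 of each after Pdx1 gRNA. Acat1, the mitochondrial acetoacetyl-CoA thiolase, fell (-1.23 ± 0.27, edgeR, adjusted p = 0.00532) and Slc16a1, which carries ketone bodies out of the cell, rose (0.74 ± 0.19, adjusted p = 0.0126) after control gRNA, the latter not called without PBS libraries 2 and 3 (0.63, adjusted p = 0.131). After Pdx1 gRNA Acat1 was also called lower and Slc16a1 higher, calls that ended in 10 and 6 of the 25 alternatives.

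Further PPAR alpha targets gave 7 of 20 lower and 4 higher after control gRNA, and 7 lower and 3 higher after Pdx1 gRNA. Lpl, lipoprotein lipase, rose by 3.70 ± 0.68 after control gRNA (edgeR, adjusted p = 0.00236), from 19.1, 15.1, 10.7 and 32.2 CPM to 487, 135, 328 and 58.1 CPM, and gave 1.63 ± 0.63 after Pdx1 gRNA (adjusted p = 0.0852). Ucp2, an uncoupling protein, and Acot9, a mitochondrial thioesterase, rose by 1.64 ± 0.26 and 1.62 ± 0.31 after control gRNA (edgeR, adjusted p = 0.000982 and 0.00239). Both were also called higher after Pdx1 gRNA, calls that ended in 15 and 2 of the 25 alternatives. The fasting hormones Fgf21 (0.07 ± 0.66 and 0.68 ± 0.66) and Angptl4 (-0.36 ± 0.26 and -0.73 ± 0.26) were not called, the latter being called lower after Pdx1 gRNA in 5 of the 25 alternatives, DESeq2 among them. This list also holds Cyp4a12a, at 825 and 748 CPM in PBS libraries 2 and 3 and at most 2.27 CPM in the other 10 libraries, so its log2 fold change of -8.51 rests on those libraries. Lipid droplet and lipolysis genes gave 3 of 15 lower and 1 higher after control gRNA, and 2 lower and 1 higher after Pdx1 gRNA. The droplet protein Plin4 and the droplet-forming Fitm1 fell after control gRNA and Hilpda rose (-1.54 ± 0.32, -3.06 ± 0.86 and 1.47 ± 0.33, edgeR, adjusted p = 0.00433, 0.0192 and 0.00572). None of these 3 was called without PBS libraries 2 and 3 (adjusted p = 0.0626, 0.682 and 0.054 in edgeR), and Fitm1 also lost its call without PBS library 3 (0.0521) or control gRNA library 3 (0.0568). After Pdx1 gRNA Plin4 and Fitm1 were also called lower and Hilpda higher, calls that likewise ended without PBS libraries 2 and 3.

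**Figure D5:**
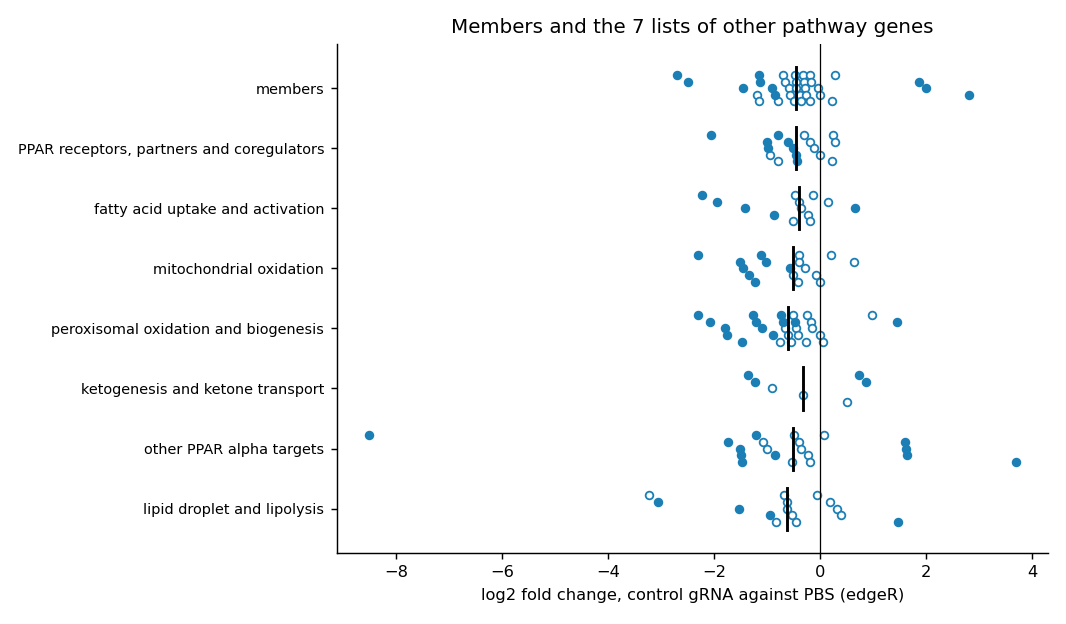
Log2 fold change after control gRNA against PBS (horizontal axis, edgeR) of each tested gene of the members and of the 7 lists of other pathway genes (vertical axis), filled where the adjusted p is under 0.05, with the median of each row as a black bar. Every median lies left of 0, and the point at -8.51 is Cyp4a12a, which is high in PBS libraries 2 and 3 only.

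Other readouts beside the members were a list of 16 circadian clock genes, of which 8 were lower after control gRNA and none after Pdx1 gRNA, and a list of 7 fasting and glucocorticoid response genes, of which 5 and 4 were lower, beside 15.8% and 10.4% of all genes. The numbers lower without PBS libraries 2 and 3 were 6 and 0 for the clock genes and 5 and 2 for the fasting genes. Of all genes, 7.05% and 3.4% were then lower. The fasting list summed to 8083 to 10974 CPM after PBS, 2987 to 4230.4 CPM after control gRNA and 3011 to 6262 CPM after Pdx1 gRNA, without overlap between PBS and either virus group. Of 7 tested male-biased liver genes, 6 and 5 were lower, and none without PBS libraries 2 and 3, their sum being 275, 6613, 4078 and 185 CPM in PBS libraries 1 to 4. Among markers of other cell types after control gRNA, 2 of 5 for T cells, 2 of 4 for cholangiocytes and 1 of 6 for macrophages were higher, and 1 of 3 for endothelium and 1 of 4 for stellate cells and fibroblasts were lower, beside 16.3% higher and 15.8% lower of all genes. After Pdx1 gRNA 2 of 3 for endothelium were lower. Neutrophil and B and plasma cell markers had no called gene. Summed levels of the endothelial markers were 87.8 to 219.9 CPM after PBS, 57.4 to 104 CPM with the control guide and 48.7 to 88.8 CPM with the Pdx1 guide, and those of the cholangiocyte markers 6.94 to 18.6, 14.4 to 44.4 and 8.23 to 18.4 CPM. T cell markers summed to 1.71 to 4.02, 5.71 to 9.65 and 1.81 to 6.73 CPM. With PBS libraries 2 and 3 left out, the called markers of these types in the control gRNA comparison came down to 1 endothelial gene. The slope of expression on gene length also differed, at -0.032 log2 units per doubling of length in PBS library 1, 0.0719 to 0.132 in PBS libraries 2 to 4 and -0.106 to 0.0328 in the virus libraries. With length and GC trends removed, a choice made after the data were seen, 10 members were lower and 3 higher after control gRNA, and 6 and 2 after Pdx1 gRNA. The shares of all genes in that fit were 16% lower and 14% higher after control gRNA, and 9.34% and 10.6% after Pdx1 gRNA. The part of these readouts in the changes of the members was not tested.

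PPAR alpha and its partner bind DR1 elements, direct repeats of AGGTCA with a base between them, and promoters of the members were read for such letters to show which carry them close to the start. The RefSeq table of GRCm38.p6 promoters held 27 of the 34 members in 29 entries. The 250 bases before each start were searched on both strands for AGGTCA, any base, and AGGTCA again, with at most 2 of these 12 fixed letters changed. A match was present in 3 of 29 member promoters (10.3%), and in 1063 of all 32851 promoters (3.24%). The single repeat AGGTCA, which overlaps the longer motif, was in 6 of 29 (20.7%) and in 14% of all promoters. The matching members were Fabp1 (1 letter changed, from base -67, chr6:71199629-71199878, plus strand), Plin2 (2 letters changed, from base -225, chr4:86670060-86670309, minus strand) and Acot4 (2 letters changed, from base -13, chr12:84038129-84038378, plus strand), each shown 5′ to 3′ along its gene with the match in capitals.
Fabp1: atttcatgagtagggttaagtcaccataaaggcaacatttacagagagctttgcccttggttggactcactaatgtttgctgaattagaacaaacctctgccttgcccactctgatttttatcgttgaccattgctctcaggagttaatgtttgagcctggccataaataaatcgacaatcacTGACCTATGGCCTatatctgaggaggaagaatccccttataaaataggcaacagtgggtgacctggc
Plin2: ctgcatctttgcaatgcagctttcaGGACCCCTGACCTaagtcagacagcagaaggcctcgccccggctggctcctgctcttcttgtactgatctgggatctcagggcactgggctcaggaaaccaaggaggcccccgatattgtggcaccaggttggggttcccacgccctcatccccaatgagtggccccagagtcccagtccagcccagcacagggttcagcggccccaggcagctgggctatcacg
Acot4: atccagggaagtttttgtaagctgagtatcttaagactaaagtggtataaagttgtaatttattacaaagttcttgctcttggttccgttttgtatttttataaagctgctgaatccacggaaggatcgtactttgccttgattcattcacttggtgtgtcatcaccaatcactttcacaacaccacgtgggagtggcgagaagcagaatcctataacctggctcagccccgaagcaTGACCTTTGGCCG
None of these 3 was called by edgeR's test with all 12 libraries in either comparison with PBS, and the alternatives that called Fabp1 and Acot4 are given above. Of the 10 members called after control gRNA, Ppara, Cpt1a, Acadvl, Decr2, Eci2, Acaa1b, Cyp4a32, Acot2 and Pdk4 had a promoter in the table without a match in this window. A match is a run of letters and not a measured binding site.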

How the data were processed

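Polyadenylated liver RNA of 12 libraries was measured as whole-number fragment counts per gene, which the authors deposited as 1 table a library without normalization. Per the file headers the counts came from featureCounts 1.4.6-p4 with GENCODE M13, without strand (setting 0), on read pairs with both ends mapped. The stated command has no option to count multi-mapping or overlapping reads, which bears on near-identical genes. Per the submitters' processing notes, Trimmomatic 0.32, STAR 2.4.1a, DESeq2 1.22.0, R 3.5.1 and the builds GRCm38 and mm10 were used. The tables also list a gene length in bases, used here for TPM.

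Symbols were matched by gene ID to GENCODE M21 (50376 of 50600). Genes were filtered with filterByExpr (minimum count 10), scaled by TMM and fitted over all 12 libraries with edgeR 4.0.16 in R 4.3.3 (quasi-likelihood, robust, two-sided, SE from the F statistic), with Benjamini-Hochberg adjustment over 15219 genes. CPM uses TMM-scaled library sizes. The method was tested on simulated data. Alternatives were other scalings and filters, DESeq2 1.42.0, limma-voom (limma 3.58.1), a block on the replicate number, fits of only the 8 libraries compared or without each library, PBS libraries 2 and 3 left out or given a covariate, and length and GC trends removed (15192 genes had a GC value). Of the other pathway genes, those named are the 3 with the smallest p per list after control gRNA, and Fgf21, Angptl4, Cd36, Rxra, Pparg, Ppargc1a and Ep300, with some genes chosen this way not reported here. Cyp4a12a was named after its values were seen. Members and lists were chosen with earlier results of these data known. No library pair was a copy (chi-square per degree of freedom 21.5 to 337 over 66 pairs).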

Additional observations from a re-analysis of the deposited data

Results flagged for a closer look

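In 7 of 177 groups of 4 libraries examined, 102 of them of the members, the highest or lowest library was set apart from the others by a larger share of the group's range than Dixon's test at the 95% level allows, and chance flags about 1 in 20 groups. For the members, Hadha was at 313 CPM in PBS library 1 (553, 543 and 521 in the others) and at 428 CPM in control gRNA library 4 (358, 346 and 355), and Vnn1 was at 61.7 CPM in Pdx1 gRNA library 2 (16.1, 23.7 and 20.1). For other pathway genes, PBS library 1 held Ncoa2 at 43.8 CPM (84.8, 82.8 and 81.9 in the others) and Slc27a5 at 410 CPM (1231, 1196 and 1154). Control gRNA library 3 held Acad10 at 21.9 CPM (19.8, 19.8 and 20 in the others) and control gRNA library 2 held Rxra at 280 CPM (241, 243 and 243). PBS library 1 accounts for 3 of the 7.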

How the results depend on the processing

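Over 25 alternatives, Ppara, Cyp4a32 and Acot2 after control gRNA and Ppara, Cyp4a31 and Acot2 after Pdx1 gRNA were called in each. No called member changed sign, while 13, 14 and 19 uncalled members did so in at least 1 alternative in control gRNA against PBS, Pdx1 gRNA against PBS and Pdx1 gRNA against control gRNA. Members lower after control gRNA (7) were 4 with total library sizes, 12 with DESeq2, 3 with the covariate for the male pattern and 3 without PBS libraries 2 and 3, and members higher (3) were 1 without those libraries. Lower over all genes in these fits were 6.99%, 19.7%, 8.69% and 7.05%, in place of 15.8%. Without those libraries 6.91% of all genes were higher, in place of 16.3%. Members lower after Pdx1 gRNA (5) were 2 with the covariate and 1 without PBS libraries 2 and 3. Over all genes the shares lower were then 4.84% and 3.4%, in place of 10.4%. Other pathway genes lower and higher after control gRNA (44 and 9) were 21 and 5 with the covariate and 19 and 4 without PBS libraries 2 and 3. The shares of all genes in these fits were 8.69% and 9.61%, and 7.05% and 6.91%. After Pdx1 gRNA (34 and 7) the other pathway genes were 11 and 2 with the covariate, and 8 and 1 without PBS libraries 2 and 3. They were 20 and 4 with only the 8 libraries compared, and 22 were lower without a filter. Lower and higher over all genes were 4.84% and 6.96% with the covariate, and 3.4% and 4.5% without PBS libraries 2 and 3. They were 5.63% and 8.56% with only the 8 libraries compared, and 3.28% were lower without a filter. The fewer calls without PBS libraries 2 and 3 come with fewer samples, but the typical change of the members was smaller too. For control gRNA against PBS, their median lay -0.20 from that of all genes, where all 12 libraries gave -0.44. For Pdx1 gRNA against PBS the gap was -0.09, where all 12 gave -0.35. What caused the drop in calls was not tested.

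Leaving out each library in turn gave 5 to 14 members lower and 2 to 3 higher after control gRNA, and 4 to 9 lower and 2 higher after Pdx1 gRNA. Other pathway genes ran from 35 to 61 lower and 7 to 11 higher, and from 18 to 57 lower and 2 to 7 higher. The shares of all genes moved as well in these fits. They ran from 11.1% to 21.4% lower and 11.2% to 23.2% higher after control gRNA. After Pdx1 gRNA they ran from 6.13% to 17.3% lower and 7.41% to 17.8% higher. After Pdx1 gRNA, the pathway genes lower were 57 without PBS library 1, 22 without PBS library 2, 20 without PBS library 3 and 18 without Pdx1 gRNA library 4. Lower over all genes in these fits were 17.3%, 6.13%, 6.43% and 6.24%, in that order. Pathway genes higher were 2 without PBS library 2, PBS library 3, Pdx1 gRNA library 2 or Pdx1 gRNA library 4, and 4 without control gRNA library 3.

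The labels do not say that a replicate number pairs libraries, and 2 of 12 same-numbered pairs correlated above 0.1. With 4 libraries a group, such correlations cannot decide whether a number marks a shared litter, day or batch. With the replicate block, members lower and higher were 7 and 3 after control gRNA and 4 and 2 after Pdx1 gRNA, and other pathway genes 40 and 9, and 30 and 5. The shares of all genes with the block were 12.4% lower and 14.7% higher after control gRNA, and 7.24% and 9.53% after Pdx1 gRNA. Of the 12 libraries, 1 correlated best with its own number. Members with few counts, such as Cyp4a32 and Pdk4, and near-identical copies have the least certain levels.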
